A study of Mus musculus with 17 samples.

Results

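MicroRNA genes detected in mouse plasma are described here. A row of the gene table was taken as a microRNA gene when its name began with Mir or Mirlet and a digit and did not end in hg. It was taken as detected when its RPKM (reads scaled to the length of the gene and to the mapped reads of the library) was above 0 in at least 3 of 17 libraries. This rule gave 43 of the 1185 microRNA rows among 49585 genes. A further 25 rows were above 0 in 1 or 2 libraries, and 1117 were listed at 0 in every library. The members were thus chosen by their RPKM in these same libraries, without regard to group, and their detection is a choice and not a finding.

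Plasma came from wild type C57BL/6J mice labelled 13 weeks of age, in 3 groups. MG mice were kept in microgravity on the ISS (6 libraries), AG mice flew under artificial 1-G made by centrifugation (6 libraries), and GC mice stayed on the ground (5 libraries). Launch, return and confinement were shared by MG and AG, so MG against AG compares gravity in flight, while either flight group against GC compares flight as a whole. Small RNA libraries were made because the RNA was degraded, and each held short RNAs and short pieces of longer ones.

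MicroRNAs are short single-stranded RNAs that guide Argonaute proteins to messenger RNAs through the seed, the bases near their 5′ end, and so lower the output of those messenger RNAs. They are cut by Drosha and Dicer from hairpins in longer transcripts. Many are typical of 1 tissue, and in plasma they travel in protein complexes, lipoproteins and vesicles, so that plasma microRNAs are widely used as signs of the cells that released them.

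The mature sequences below belong to the members on which the results turn, and are shown so that relatives can be told from one another. They are from RefSeq on GRCm38.p6, which gave an entry for 38 of the 43 members. Capitals mark the seed, bases 2 to 8 from the 5′ end, and the table of RPKM values does not say which arm of a hairpin the reads came from.

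The first set is the pair made from 1 red cell precursor.
miR-451a: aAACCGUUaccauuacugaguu
miR-144-3p: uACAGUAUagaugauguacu
miR-144-5p: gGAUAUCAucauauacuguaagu

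The second set is the 4 Mirlet7 members, which share 1 seed.
let-7i-5p: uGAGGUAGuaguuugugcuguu
let-7b-5p: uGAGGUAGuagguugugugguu
let-7c-5p: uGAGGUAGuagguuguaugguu
let-7a-5p: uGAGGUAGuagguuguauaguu

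The third set is the pair of relatives that differ in level and share a seed.
miR-221-3p: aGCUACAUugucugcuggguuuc
miR-222-3p: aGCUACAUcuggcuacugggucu

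The last set holds the most abundant row and other members whose levels are given by tissue or role.
miR-6236: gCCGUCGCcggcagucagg
miR-30a-5p: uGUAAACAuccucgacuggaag
miR-146a-5p: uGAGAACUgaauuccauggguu
miR-182-5p: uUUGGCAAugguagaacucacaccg
miR-192-5p: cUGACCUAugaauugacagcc
miR-23a-3p: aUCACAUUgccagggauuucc

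The 4 let-7 arms differed from one another at 1 to 4 of 22 positions. The let-7b and let-7c arms differed at position 17 alone, and let-7i differed from let-7a at 4 positions between 12 and 19. The miR-221 and miR-222 arms shared the seed and differed at 12 of 23 positions, from position 9 on. Mir7j, which RefSeq pairs with let-7j, was a rare member with 7 reads in all. Its seed differs from that of the 4 let-7 arms shown. Reads that do not cover the differing bases cannot be told apart within the family.

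The deposited count column read 0 for every microRNA row, and the reads were recovered from RPKM, gene length and the total of mapped reads that the other genes imply. All 568 recovered microRNA values were whole numbers within 0.01. The 43 members held 110823 reads in all, and microRNA reads numbered 3522 to 11073 per library, of 1596032 to 9796884 mapped reads. Precision was uneven, since 13 members had under 20 reads over all libraries, and 19 were above 0 in all 17 libraries.

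Most of these reads fell on 1 row. Mir6236 held 96728 reads, 87.3% of the reads of all members, and the 10 members with most reads held 98.1%. The gene table holds no read sequences, so which RNA gave the Mir6236 reads could not be settled, and shares and differences that include this row carry that limit. Its RPKM ran from 6994 to 18500 in AG with a median of 14340, from 3491 to 17510 in MG with a median of 8911, and in GC it was 16060, 18960, 7829, 11410 and 14110 in replicates 1 to 5. No other member reached a mean above 450.2, that of Mir143. Without Mir6236 the other 42 members shared 14095 reads, so that the level of all microRNA genes together is nearly the level of this row.

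MicroRNA reads made up 0.185% ± 0.0608 of the mapped reads in the 5 GC libraries, 0.197% ± 0.0539 in the 6 of AG and 0.135% ± 0.0726 in the 6 of MG (mean ± SD). With Mir6236 taken away, the means were 0.0172% ± 0.0105 for GC, 0.0272% ± 0.0119 for AG and 0.0197% ± 0.00869 for MG. The ranges overlapped between the groups, both with Mir6236 (0.0947% to 0.253% in AG, 0.0517% to 0.247% in MG, 0.107% to 0.261% in GC) and without it. Counting all microRNA rows, the 25 outside the rule included, 26 to 36 were above 0 in each GC library, 28 to 43 in AG and 28 to 39 in MG.

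**Figure D1:**
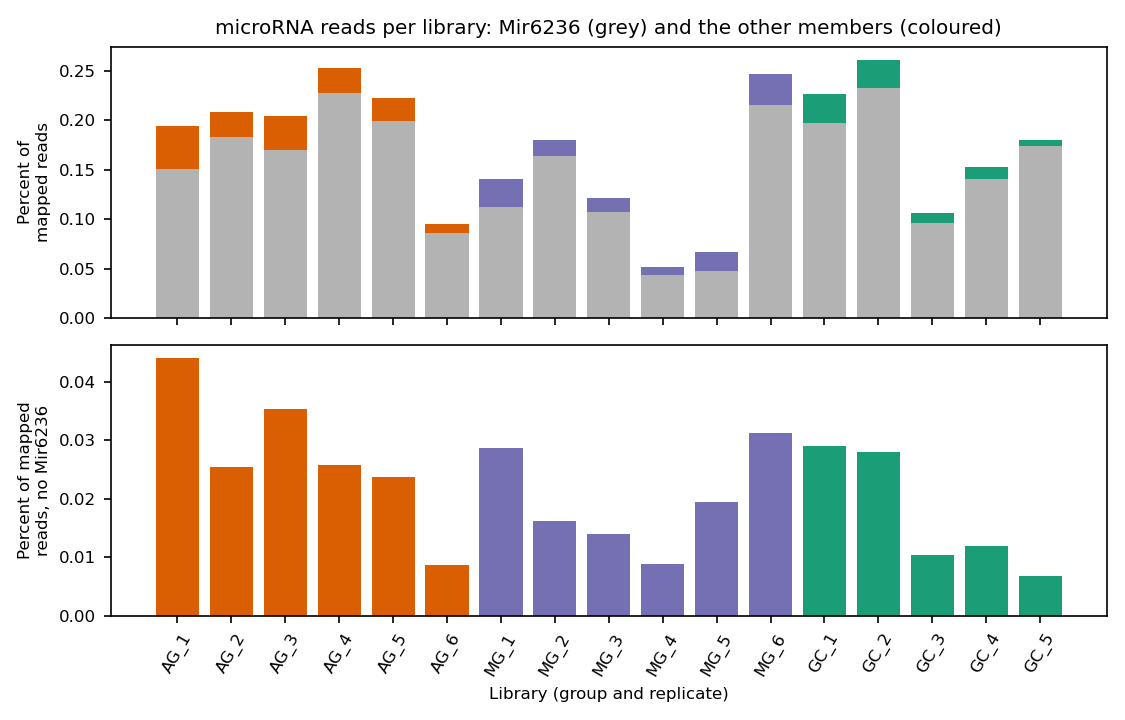
Percent of mapped reads in microRNA genes for each of the 17 libraries, with Mir6236 in grey and all other microRNA rows coloured by group (upper). The lower panel shows those other rows alone on their own scale. Grey takes most of every bar, and the coloured bars run from 0.00673% in GC replicate 5 to 0.0442% in AG replicate 1.

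Some libraries stood low or high for many members at once. Among the 19 members above 0 in every library, AG replicate 6 had the lowest AG value for 13, MG replicate 4 the lowest MG value for 12 and GC replicate 5 the lowest GC value for 9. AG replicate 6 and MG replicate 4 also had the most mapped reads of their groups, 6859728 and 9796884. MG replicate 1 had the highest MG value for 12 of the 19 and GC replicate 1 the highest GC value for 11. Values without single libraries are given beside the medians and some of the named differences.

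The 20 most abundant members ran in mean RPKM from 12170 for Mir6236 to 14.5 for Mir674. After Mir6236 came Mir143 (mean RPKM 450.2), Mir122 (421), Mir451a (373), Mir30a (369), Mirlet7i (293), Mir5099 (257) and Mirlet7b (186). They were followed by Mirlet7c-2, Mir222, Mir320, Mir146, Mir23a, Mir10a, Mirlet7a-1, Mir192, Mir351, Mir92-2, Mir375 and Mir674, with means from 77.8 down to 14.5. Mir6236 stood apart, with its lowest library above the highest of any other member (2453, Mir122). Below it, neighbours in this order overlapped in range, as with Mir451a, which ran from 24.7 to 1576.

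**Figure D2:**
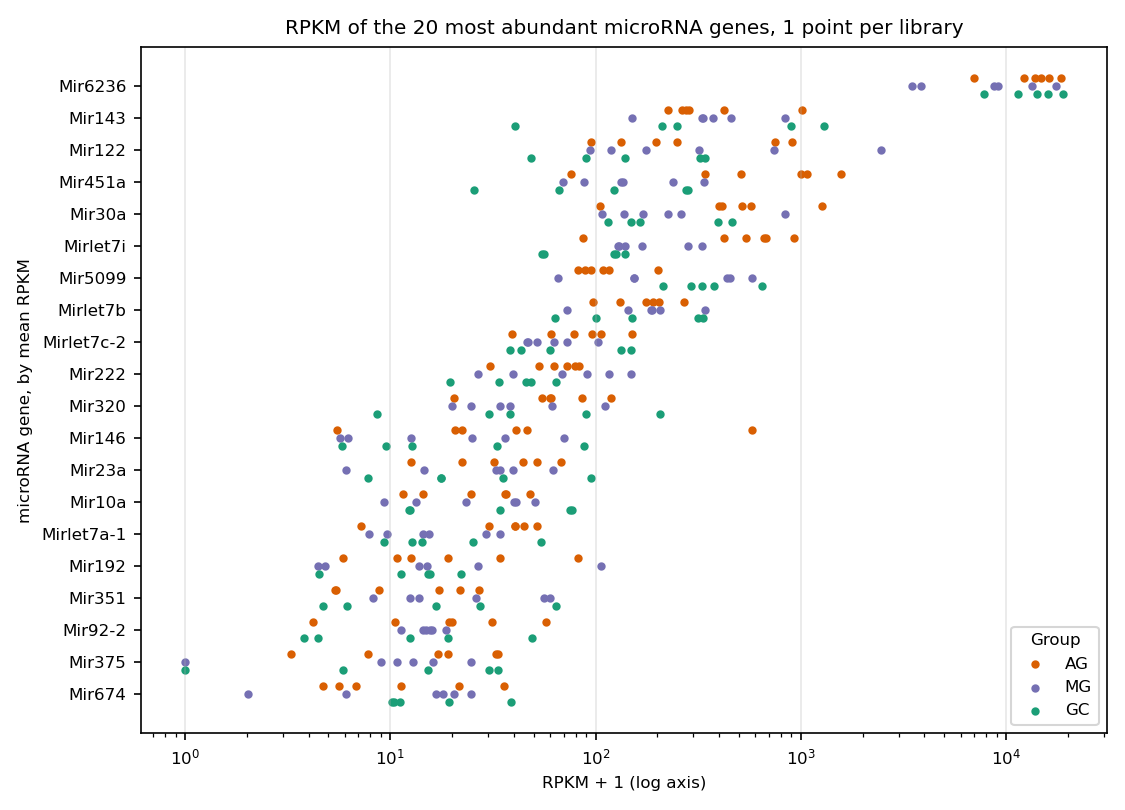
RPKM plus 1 on a log axis for the 20 members with the highest mean RPKM, with 1 point per library and colours for AG, MG and GC. Mir6236 lies alone at 3491 and above, and the points of the other neighbouring genes overlap.

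Most members lay outside other genes, a feature that the rule did not use and that rows above 0 in fewer libraries had as well. Of the 43 members, 39 (90.7%) overlapped no other gene of the table on either strand, as did 22 of 25 rows above 0 in 1 or 2 libraries (88.0%), whereas 206 of 1103 rows at 0 with a known position (18.7%) did so. Read the other way, 39 of 267 rows outside other genes were members (14.6%), against 4 of 904 rows inside or across another gene (0.442%). The 4 members that overlapped another gene were Mir24-2, Mirlet7a-1, Mir484 and Mir99b. No test was made of this, because rows within a cluster or family are not independent.

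Abundant blood microRNA genes that lie within other genes were listed at 0 in all 17 libraries. Mir21a, a broadly expressed microRNA gene, lies in Vmp1, whose count ran from 61 to 1058 per library. Mir223, the granulocyte microRNA gene, lies in F630028O10Rik (172 counts in all). Mir25 lies in Mcm7 (596 counts) and Mir92-1 in Mir17hg (718 counts), while Mir16-1, Mir16-2, Mir486 and Mir126a lie in Dleu2, Smc4, Ank1 and Egfl7 with 3, 18, 39 and 84 counts. Mir142, a gene of white blood cells, lies in Mir142hg, and both were at 0 in all libraries. For the 8 rows with reads in the surrounding gene, a 0 does not separate absent RNA from reads given to the surrounding gene, and how the counting treated such reads was not given in the sources used here.

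Hairpin base composition overlapped between members and rows at 0. Median GC content was 48.7% over the 33 member hairpins in RefSeq and 51.9% over 900 hairpins of rows at 0, with ranges of 34.4% to 67.2% and 26.2% to 84.9%. Gene lengths of the members ran from 60 to 123 bases, with a median of 82.

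The rule had its edge at 3 libraries. The 5 members just inside it were Mir5112, Mir27a, Mir31, Mir7-2 and Mir465c-1, with 3 to 8 reads each over all libraries. Rows above 0 in 2 libraries held 2 to 26 reads, and the most were in Mir133a-2, a muscle microRNA gene with an RPKM of 51.1 in AG replicate 2 and 5.34 in AG replicate 3.

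Tissue-typical microRNA genes were counted in 11 lists. Members made up 3 of 13 rows of the red cell list, 2 of 11 of the myeloid and lymphoid list, 5 of 11 of the platelet and endothelium list, 4 of 6 of the liver list, 2 of 2 of the smooth muscle list and 4 of 11 let-7 rows. The skeletal and heart muscle list had 1 of 11, the pancreas list 1 of 4 and the epithelium list 1 of 7. None of 13 brain rows and none of 15 stem cell and imprinted rows was above 0 in any library, but 10 of the 13 and 12 of the 15 overlap another gene of the table. The rows at 0 in the myeloid, platelet, muscle and liver lists all overlap another gene too, as do 9 of the 10 in the red cell list. Rows such as Mirlet7a-1, Mirlet7c-2, Mir92-2, Mir24-2, Mir194-2 and Mir1a-1 make the same mature microRNA as a second gene that was at 0, so the split between copies is uncertain.

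**Figure D3:**
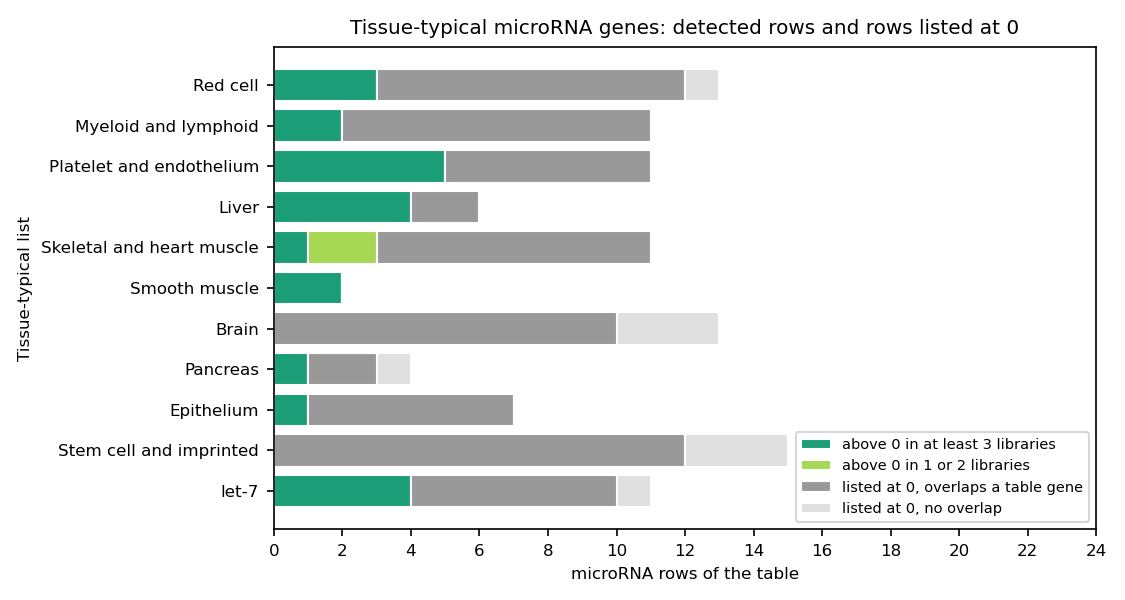
Number of microRNA rows in each tissue-typical list, split into rows above 0 in at least 3 libraries, in 1 or 2 libraries, at 0 and overlapping another gene of the table, and at 0 without overlap. The smooth muscle and liver lists were mostly detected, and the brain and stem cell lists hold only rows at 0.

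Red cell microRNAs were represented by Mir451a, Mir144 and Mir92-2. Mir144 (chr11:78073005-78073070, plus strand) and Mir451a (chr11:78073170-78073241) lie 99 bases apart, are transcribed together in erythroid cells, and differ in processing, since miR-451a is cut by Ago2 and not by Dicer. RPKM of Mir451a ran from 74.9 to 1576 in AG with a median of 753, from 68.6 to 335 in MG with a median of 133, and was 122, 282.5, 24.7, 276 and 65.2 in GC replicates 1 to 5. In AG, 5 of 6 libraries lay above every MG and GC library, and AG replicate 6 lay within their range.

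Mir144 followed with far fewer reads, 41 in AG, 6 in MG and 4 in GC. Its RPKM ran from 5.24 to 47.7 in AG with a median of 22.95, from 0 to 6.19 in MG with a median of 2.37, and was 0, 3.95, 3.85, 5.57 and 0 in GC. All 6 AG libraries were above 0, against 3 of 6 in MG and 3 of 5 in GC, and 5 of the 6 lay above every MG and GC library, the exception being AG replicate 1. Mir451a was higher than Mir144 in all 17 libraries, 36.6-fold by their means.

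Red cell messenger RNAs are given beside these values. The 7 red cell markers, the globins among them, had a summed RPKM of 182 to 1334 in AG with a median of 665, 122 to 861 in MG with a median of 467, and 206 to 2212 in GC with a median of 590, and all 7 were above 0 in each group. The ratio of Mir451a to Mir23a, which is in use as a sign of red cell rupture in plasma, had a median of 24.3 in AG (3.50 to 32.3), 4.83 in MG (2.60 to 17.4) and 3.91 in GC (3.01 to 8.04). The part of red cell RNA in the AG values was not tested. In plasma fewer releasing cells and less RNA per cell cannot be told apart.

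Mir92-2, paired by RefSeq with miR-92a, an abundant red cell microRNA, ran from 3.20 to 56.5 in AG, from 10.3 to 17.7 in MG, and was 48.2, 11.46, 2.79, 18.2 and 3.44 in GC. The groups overlapped over most of their ranges.

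The let-7 family, which represses cell growth genes and restrains Lin28, was led by Mirlet7i. RPKM of Mirlet7i (chr10:122985640-122985724, minus strand) ran from 85.8 to 925 in AG with a median of 598, from 127 to 331 in MG with a median of 153, and was 125, 123, 53.8, 138 and 55.2 in GC. In AG, 5 of 6 libraries lay above every other library, and AG replicate 6 lay below every MG library and within the GC range.

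The other let-7 rows had smaller differences between the groups than Mirlet7i. Mirlet7b had medians of 182 in AG, 186 in MG and 149 in GC, and Mirlet7c-2, which lies 621 bases from it, had 86.7, 56.4 and 59.3. Mirlet7a-1 had medians of 39.4 in AG, 13.98 in MG and 13.3 in GC, with GC values from 8.32 to 53.3. The AG minus GC log2 difference of RPKM plus 1 was 2.28 for Mirlet7i (95% interval 0.79 to 3.77), 0.71 for Mirlet7a-1 (-0.72 to 2.14), 0.17 for Mirlet7c-2 (-1.27 to 1.61) and 0.09 for Mirlet7b (-1.36 to 1.54). Scaled to the summed microRNA RPKM without Mir6236, the difference of Mirlet7i was 1.55, and those of the 3 other rows were -0.02, -0.56 and -0.64. The differences of Mirlet7c-2 and Mirlet7b also changed sign without single libraries. Mirlet7a-1 differed by 0.45 without GC replicate 2, 1.09 without GC replicate 1 and 1.12 without AG replicate 6. In edgeR the 4 differences were 2.89, 1.29, 0.79 and 0.56 in the same order. The difference between members of the family was not tested. The 7 let-7 rows at 0 included Mirlet7f-1, Mirlet7f-2 and Mirlet7g, and 6 of the 7 overlap another gene.

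Liver microRNAs were led by Mir122, the dominant microRNA gene of hepatocytes. RPKM of Mir122 ran from 94.5 to 905 in AG with a median of 223, from 92.8 to 2453 in MG with a median of 247, and was 323, 340, 139, 89.1 and 47.4 in GC. MG replicate 6 held 2453, and the next MG library 737. The 7 liver messenger RNA markers, Alb among them, were also highest in that library (summed RPKM 48.6, with 0.785 to 7.89 in the other MG libraries), while AG replicate 6 had a sum of 16.9 beside 250 for Mir122. The part of liver RNA in these values was not tested.

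Mir192, typical of liver and gut epithelium, ran from 4.91 to 81.6 in AG, from 3.44 to 105 in MG and from 3.52 to 21.1 in GC. Its cluster partner Mir194-2, 115 bases away, was above 0 in 8 libraries with 13 reads, and the hepatocyte gene Mir148a in 8 libraries with 16 reads. Mir148a was above 0 in 5 of 6 MG, 2 of 6 AG and 1 of 5 GC libraries, with at most 6.52 in MG and 10.5 in AG.

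Smooth muscle microRNAs were present as the neighbours Mir143 and Mir145a, which hold vascular smooth muscle in its contractile state. RPKM of Mir143 ran from 224 to 1010 in AG with a median of 281, from 149 to 841 in MG with a median of 353, and was 895, 1296, 210, 248 and 39.7 in GC. The ranges of the 3 groups overlapped, and that of GC was the widest. Mir145a ran from 0 to 9.88 in AG with a median of 2.97, from 0 to 13.8 in MG with a median of 4.90, and was 44.75, 85.7, 0, 13.1 and 13.4 in GC. GC replicates 1 and 2 lay above every flight library. Mir143 was 35.7-fold above Mir145a by their means.

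Platelet and endothelial microRNAs included Mir221 and Mir222, which lower Kit and restrain vessel growth. Mir221 ran from 4.59 to 40.0 in AG with a median of 10.3, from 3.22 to 23.8 in MG with a median of 16.95, and was 0, 16.5, 2.67, 1.94 and 6.59 in GC. Mir222, 504 bases away, was higher than Mir221 in all 17 libraries, 4.96-fold by their means, and ran from 29.5 to 82.0 in AG, from 25.7 to 147 in MG and from 18.6 to 63.5 in GC.

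The cluster of Mir23a, Mir27a and Mir24-2 was seen mainly as Mir23a, which ran from 11.6 to 66.6 in AG, from 5.06 to 61.0 in MG and from 6.77 to 93.9 in GC. Mir27a, 79 bases away, had 5 reads and Mir24-2 had 23. The 6 platelet messenger RNA markers had a summed RPKM with a median of 53.8 in AG, 93.3 in MG and 192 in GC, and the ranges overlapped.

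Immune microRNAs were few. Mir150, typical of mature lymphocytes and a repressor of Myb, ran from 0 to 31.9 in AG with a median of 5.13, from 1.57 to 11.7 in MG with a median of 7.74, and was 28.9, 20.1, 19.5, 11.3 and 4.81 in GC. Mir146, paired by RefSeq with miR-146a, a brake on innate immune signalling, had medians of 30.8 in AG, 17.9 in MG and 11.7 in GC. AG replicate 1 stood at 580, against 45.6 for the next AG library. The 7 leukocyte messenger RNA markers had a summed RPKM of 2.48 to 16.3 over all libraries, and 1 of the 7 was at 0 throughout MG and 1 throughout GC.

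Skeletal muscle was represented by Mir1a-1 alone among members, with 22 reads. It was listed at 0 in all 6 MG libraries, was 31.4, 30.0 and 4.81 in AG replicates 1 to 3 and 0 in the other AG libraries, and was 8.14, 3.39, 0, 2.39 and 0 in GC. It was above 0 in too few libraries to be tested. The 6 skeletal muscle messenger RNA markers had a summed RPKM of at most 2.25 in any library, and 2 of the 6 were at 0 throughout AG and 1 throughout GC.

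Other tissues added single genes. Mir375, the islet microRNA gene that restrains insulin release, ran from 2.28 to 32.4 in AG, from 0 to 23.8 in MG and from 0 to 32.6 in GC. Mir203, typical of skin epithelium, ran from 1.92 to 31.8 in AG, from 1.34 to 29.8 in MG and was 8.24, 17.2, 0, 2.42 and 0 in GC. Mir182, a sensory epithelium microRNA gene, ran from 10.3 to 41.5 in AG with a median of 19.4, from 0 to 38.8 in MG with a median of 6.71, and was 8.35, 6.96, 3.39, 2.45 and 4.17 in GC. Every AG value of Mir182 exceeded every GC value. Its cluster partner Mir183 had 6 reads in all.

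Of the remaining abundant members, Mir5099 was lowest in AG. It ran from 80.8 to 200.2 in AG with a median of 101, from 64.8 to 580 in MG with a median of 294, and was 644, 328, 378, 291 and 211 in GC. Every AG value lay below every GC value. Mir30a, a broadly expressed microRNA gene, ran from 105 to 1266 in AG with a median of 465, from 106 to 832 in MG with a median of 197, and from 115 to 459 in GC with a median of 165. Mir10a, which lies among the Hoxb genes, had medians of 29.5, 30.9 and 33.4 in AG, MG and GC. Mir320, Mir351 and Mir674 had medians of 59.4, 12.1 and 8.06 in AG, 35.1, 19.1 and 16.4 in MG and 37.2, 15.8 and 10.2 in GC.

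**Figure D4:**
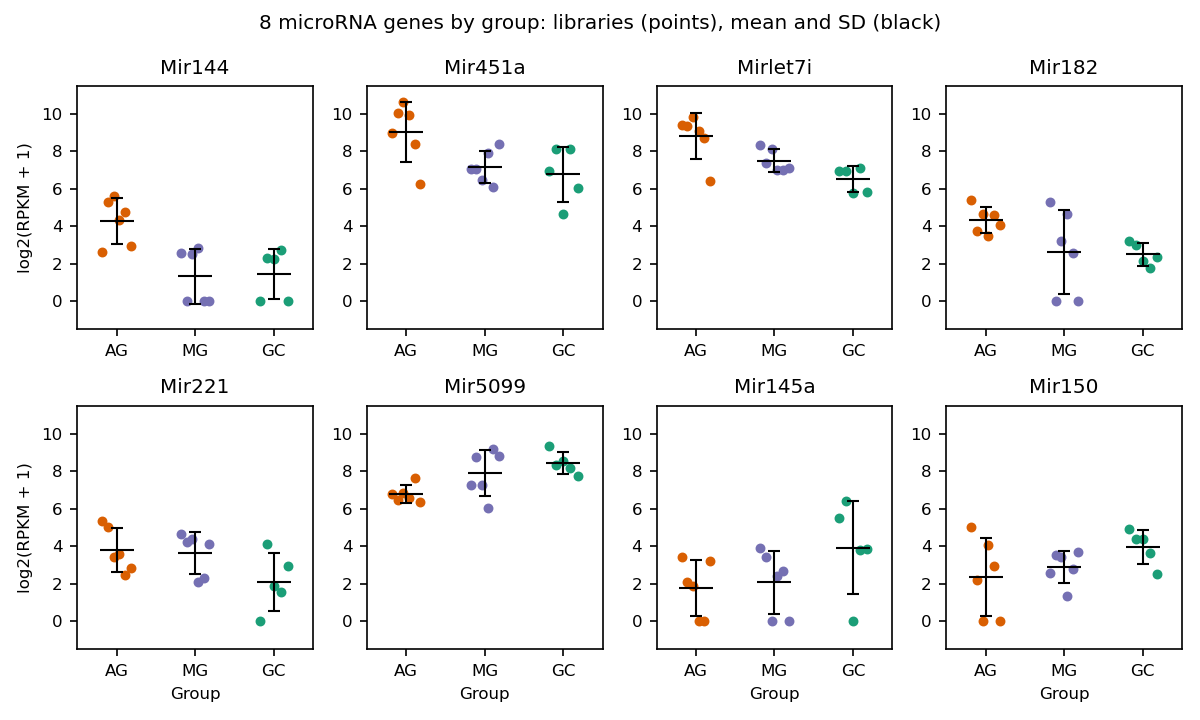
log2(RPKM + 1) of 8 members by group, with 1 point per library and the group mean ± SD in black. Mir144, Mir451a and Mirlet7i have their highest means in AG, every AG point of Mir182 lies above the GC points, and every AG point of Mir5099 lies below the GC points.

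The groups were compared with limma on log2(RPKM + 1) over all 2119 genes above 0 in at least 9 libraries, 29 of them members, with p-values adjusted over all 2119. The other 14 members were not tested. Fold changes on this scale understate those of low genes and depend on the pseudocount where reads are few. The labels give the replicates only as numbers. The study describes them as biologically independent samples, so p-values measure the spread between libraries of different mice.

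Microgravity against artificial 1-G asks what gravity changes within flight. No member passed an adjusted p of 0.05 in limma, where 0% of all genes did. The study filtered genes at a fold above 1.5 with p below 0.05 before adjustment, and these thresholds were applied here to limma on RPKM, not to the count test of the study. By them 4 of 29 members passed and all 4 were lower in MG, against 2.22% of all genes (27 higher and 20 lower). The fold cut weighs most on low genes on this scale. By unadjusted limma p under 0.05 alone, 4 of 29 members and 131 of 2119 genes passed. The median log2 difference (MG minus AG) of the 29 was -0.24, beside 0.04 over all genes, with 19 negative and 10 positive, and turned to 0.30 or 0.19 when libraries were scaled to their summed microRNA RPKM with or without Mir6236. Without AG replicate 1 that median was 0.13, without MG replicate 4 it was -0.09, and without MG replicate 1, AG replicate 5 or AG replicate 6 it was -0.54, -0.44 or -0.49. It was -0.52 under quantile normalization, -0.56 in edgeR and -0.13 at a pseudocount of 10. The exact Mann-Whitney test called 0 members and 0% of genes after adjustment, and 2 members had an unadjusted exact p under 0.05, as did 6.84% of all genes. With groups this small, an exact rank test over 2119 genes could hardly pass the adjustment. Its 0 calls in each comparison thus say little. edgeR on whole reads called 1 member, Mir451a, and 0.237% of 2106 genes.

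Mir144 had the smallest p of all 2119 genes in this comparison, with a log2 difference of -2.95 (standard error 0.67, adjusted p = 0.332 in limma; exact Mann-Whitney p = 0.00433 unadjusted). With 6 reads in MG its size turned on the pseudocount, with -1.29 at a pseudocount of 10 and -4.63 at 0.1. Mir451a had a difference of -1.88 (standard error 0.82, adjusted p = 0.765), which in edgeR was -2.15 with an adjusted p of 0.0157. The edgeR call was lost without any 1 of AG replicates 2, 3, 4 and 5 or MG replicates 1, 2, 3 and 5, with an adjusted p of up to 0.409 (without AG replicate 3). Mir182 differed by -1.69, Mirlet7i by -1.30 and Mir6236 by -0.73 (adjusted p = 0.765 in limma for each). In edgeR Mir182 differed by -0.58 (adjusted p = 0.946), and at pseudocounts of 10 and 0.1 by -0.65 and -2.81 in limma. Scaled to the summed microRNA RPKM, Mirlet7i differed by -0.65, Mir451a by -1.23 and Mir6236, which makes up most of that sum, by -0.08.

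Microgravity against the ground compares the whole of flight without a centrifuge. No member passed the adjusted p of 0.05 in limma, with 0% of all genes. By the thresholds of the study 1 of 29 members passed, Mir221, against 0.944% of all genes. By unadjusted limma p under 0.05 alone, 1 of 29 members and 138 of 2119 genes passed. The median log2 difference (MG minus GC) of the members was 0.02, beside -0.03 over all genes, with 15 positive and 14 negative, and was 0.54 and -0.19 under those scalings. Near 0, it changed sign without MG replicate 1 (-0.24), MG replicate 6 (-0.03), GC replicate 3 (-0.08) or GC replicate 5 (-0.21), and reached 0.31 without GC replicate 1. It was 0.22 under quantile normalization, 0.32 in edgeR and 0.26 scaled by the mean RPKM. After adjustment, which it could hardly pass, the exact Mann-Whitney test called 0 members and 0% of genes. Unadjusted, 1 member had an exact p under 0.05, as did 3.3% of all genes. edgeR called 1 member, Mir122, and 0.19% of 2106 genes.

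Mir221 differed by 1.53 between MG and GC (standard error 0.72, adjusted p = 0.750 in limma), Mir6236 by -0.72, Mir145a by -1.86, Mir203 by 1.21 and Mir150 by -1.08, with adjusted p from 0.750 to 0.854 in limma. Mir221 differed by 1.00 without GC replicate 1, Mir145a by -1.23 without GC replicate 2 and -2.84 without GC replicate 3, and Mir203 by 0.75 without GC replicate 3 or 5. In edgeR Mir6236 differed by -0.24. At a pseudocount of 10 Mir221 differed by 0.63, Mir145a by -1.07, Mir203 by 0.37 and Mir150 by -0.59. Mir122 differed by 1.14 in limma (standard error 0.90, adjusted p = 0.870) and by 2.28 in edgeR (adjusted p = 0.0221). Without MG replicate 6 the limma difference was 0.56 and without GC replicate 5 it was 0.74. Without MG replicate 6 the edgeR value was 0.89 with an adjusted p of 0.973, so the edgeR call rested on that library. It was lost as well without MG replicate 5, GC replicate 3 or GC replicate 5 (adjusted p = 0.0678, 0.0999 and 0.167 in edgeR).

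Artificial 1-G in flight against the ground gave the most members at unadjusted limma p, and the most of all genes too. No member passed the adjusted p of 0.05 in limma, where 0.0472% of all genes did, 1 gene. By the thresholds of the study 8 of 29 members passed, 5 higher and 3 lower in AG, against 5.43% of all genes (20 higher and 95 lower). By unadjusted limma p under 0.05 alone, 8 of 29 members and 266 of 2119 genes passed. The median log2 difference (AG minus GC) of the members was 0.55, beside -0.07 over all genes, with 22 positive and 7 negative, and was 0.48 and -0.11 under those scalings. It was 0.23 without GC replicate 3, 0.25 without AG replicate 1 and 0.29 without GC replicate 5. It was 1.13 under quantile normalization, 0.89 in edgeR, 0.85 scaled by the mean RPKM, 0.32 with no filter and 0.30 at a pseudocount of 10. After adjustment, which it could hardly pass, the exact Mann-Whitney test called 0 members and 0% of genes. Unadjusted, 5 of 29 members had an exact p under 0.05, as did 8.21% of all genes. edgeR called 3 members, Mirlet7i, Mir451a and Mir146, and 0.427% of 2106 genes. Groups did not overlap for 2 of 29 members, Mir182 and Mir5099, and for 0.991% of all genes.

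Between AG and GC, Mir144 differed by 2.81 (standard error 0.70, adjusted p = 0.183 in limma), and without GC replicate 4 by 3.12 with an adjusted p of 0.0496, the 1 limma call of a member made with a library left out, in a fit that called 16 genes (0.755%). At pseudocounts of 10 and 0.1 it differed by 1.28 and 4.20. Mirlet7i differed by 2.28 (standard error 0.72, adjusted p = 0.316 in limma) and by 2.89 in edgeR (adjusted p = 0.00032). Its edgeR call was lost only without GC replicate 5 (adjusted p = 0.0560 in edgeR), and quantile normalization gave a limma difference of 2.68 with an adjusted p of 0.0270, in a fit that called 4 genes (0.189%). Mir451a differed by 2.27 (standard error 0.86, adjusted p = 0.350 in limma) and by 2.73 in edgeR (adjusted p = 0.000672), with the edgeR call lost without AG replicate 3, AG replicate 4 or GC replicate 5 (adjusted p = 0.167, 0.0623 and 0.143).

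Mir146 differed by 1.04 in limma (adjusted p = 0.636), by 0.25 without AG replicate 1, 0.63 without GC replicate 5 and 1.6 without AG replicate 6 or GC replicate 1, and by 2.50 in edgeR (adjusted p = 0.0328). Without AG replicate 1 the edgeR value was 0.85 with an adjusted p of 0.930, and the call was lost too without GC replicate 2, 3 or 5 (adjusted p = 0.102, 0.135 and 0.178 in edgeR). Mir221 differed by 1.69 and Mir5099 by -1.66 (adjusted p = 0.368 in limma for both). The members past those thresholds beside the 5 with the smallest p were Mir182 (1.83), Mir145a (-2.15) and Mir150 (-1.59). With single libraries left out, the limma difference of Mir145a ran from -3.13 to -1.52. In edgeR Mir150 differed by -0.52. Scaled to the summed microRNA RPKM without Mir6236, Mir451a differed by 1.53, Mir146 by 0.34, Mir221 by 1.01, Mir182 by 1.21 and Mir150 by -2.42. At a pseudocount of 10 Mir221 differed by 0.73, Mir182 by 1.00, Mir145a by -1.19 and Mir150 by -0.58. MG against AG and AG against GC share the AG libraries, so a high AG value enters both.

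**Figure D5:**
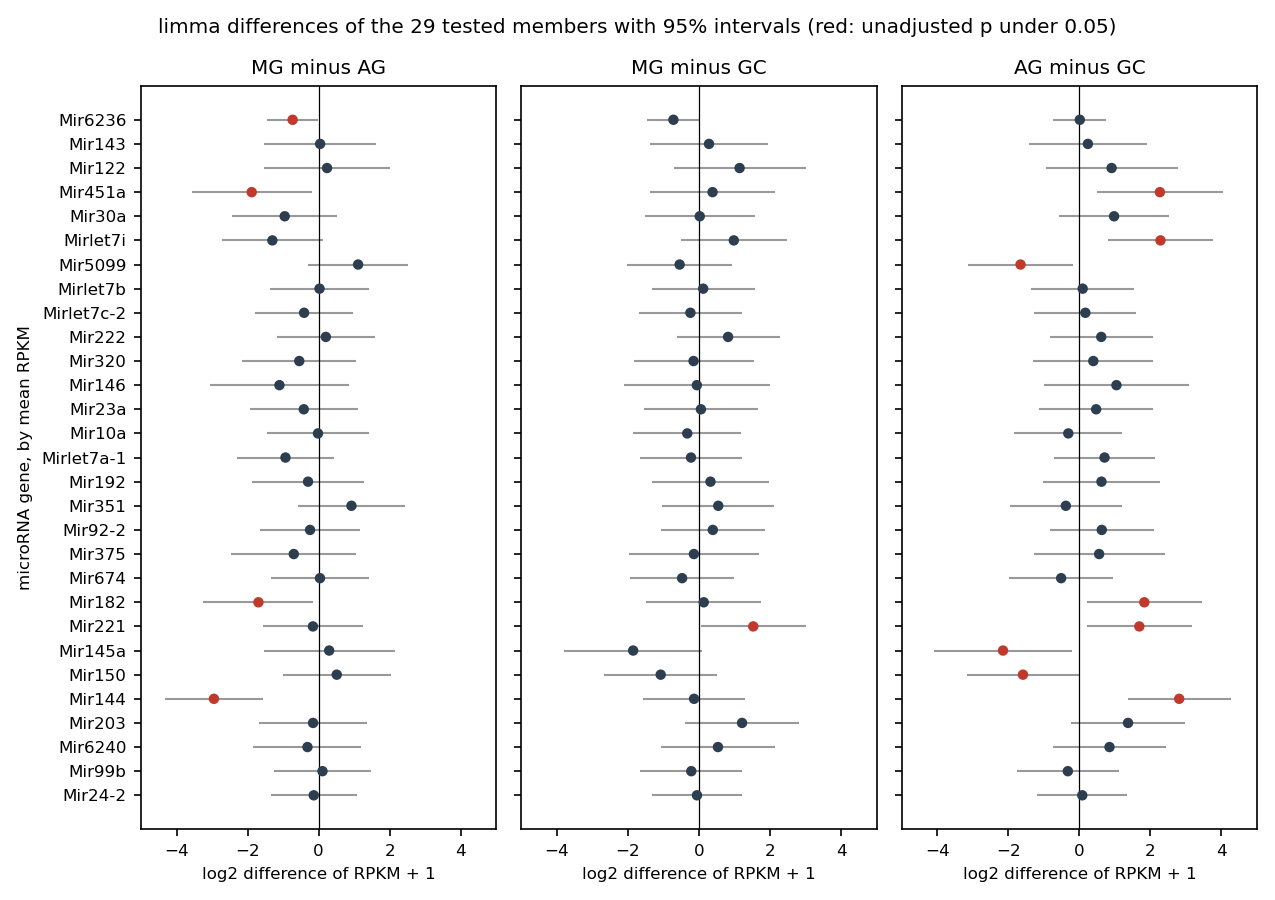
limma log2 differences of RPKM plus 1 with 95% intervals for the 29 tested members in 3 comparisons, members ordered by mean RPKM, with unadjusted p under 0.05 in red. Red points number 4 in MG minus AG, 1 in MG minus GC and 8 in AG minus GC, beside 131, 138 and 266 of all 2119 genes. Most intervals cross 0.

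The messenger RNAs of the microRNA pathway were too sparse to compare with the microRNAs. Of 27 genes for Drosha, Dicer, Argonaute and related proteins, 25 were above 0 somewhere, with 0 to 94 counts each over all libraries. Only 8 could be tested, among them Ago2, the Argonaute that can cut its targets (32 counts), and the helicase gene Ddx5 (94 counts). None passed in any comparison in limma, where the smallest adjusted p was 0.592, for Ddx5 between AG and GC, and the smallest unadjusted p was 0.106, for Ago2 between MG and AG.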

How the data were processed

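Plasma RNA of 17 mice was sequenced after small RNA library preparation. With CLC Genomics Workbench and mm10, the authors made and deposited, per gene, a count and an RPKM, scaled by gene length and mapped reads. Strand, trimming and multiple matches were not given in the sources used here. Counts were 0 for microRNA rows, so RPKM was used. Reads were recovered with gene lengths of GENCODE M21 on GRCm38 (97.8% of 3360 values whole within 0.01 over 550 rows). Differences were tested with limma 3.58.1 in R 4.3.3 (trend, pseudocount 1, all 17 libraries), with edgeR 4.0.16 (quasi-likelihood, TMM, deposited counts plus recovered reads) and exact two-sided Mann-Whitney tests as alternatives, all with Benjamini-Hochberg adjustment. Of these, only the limma fit was tested on simulated data. Named were the 20 members with the highest mean RPKM, members of tissue lists and the 5 smallest p per comparison. Other genes and differences, among them Mir484, Mir99b, Mir133a-2 and the edgeR calls, were named after their values were seen. Members and lists were chosen with earlier results of these data known. Rows were matched to the lists by symbol or RefSeq synonym. The deposited TPM column was not used. Libraries did not duplicate each other (lowest chi-square per degree of freedom 16.1).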

Additional observations from a re-analysis of the deposited data

Results flagged for a closer look

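In each group the highest and lowest library were compared with the rest of the group for each of 29 tested members. In 3 of 87 such groups of values, 1 library lay far from the others, where chance gives about 1 in 20, or 4.35. Mirlet7i was 85.8 RPKM in AG replicate 6, against 420 in the next lowest AG library. Mirlet7a-1 was 6.20 RPKM in AG replicate 6, against 29.4 in the next. Mir375 was listed at 0 in MG replicate 2, against 7.97 in the next lowest MG library. AG replicate 6 had the most mapped reads in AG (6859728) and the lowest AG value for 13 of the 19 members above 0 in every library. The part of that library in these values was not tested.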

How the results depend on the processing

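All 0 calls of members in limma stayed at 0 with pseudocounts of 0.1 and 10, both other filters, both microRNA scalings, scaling by the mean RPKM, and only the 2 groups compared. edgeR called 1, 1 and 3 members in MG minus AG, MG minus GC and AG minus GC, of 5, 4 and 9 over all genes. The thresholds of the study, on limma p, called 4, 1 and 8, of 47, 20 and 115 over all genes. With each library left out, edgeR called 0 to 2, 0 to 1 and 0 to 4 members, and 3 to 10, 1 to 9 and 2 to 14 of all genes. Quantile normalization called 1 in AG minus GC, of 4 over all genes. With each library left out in turn the limma count was 0 in MG minus AG and in MG minus GC, and 0 to 1 in AG minus GC, where the 1 came from a fit that called 16 genes. The median log2 difference then ran from -0.54 to 0.13, from -0.24 to 0.31 and from 0.23 to 0.79. Scaling by the summed microRNA RPKM turned the MG minus AG median to 0.30, beside 0.12 over all genes, and without Mir6236, an added scaling, the medians were 0.19, -0.19 and -0.11. Leaving out the library with most mapped reads of each group, added after seeing the data, gave 0 calls and medians of -0.26, 0.03 and 0.71.

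The microRNA share as summed RPKM over that of all genes was 10.5%, 7.38% and 8.45% in AG, MG and GC. Without Mir6236, an alternative added after seeing the data, the share of mapped reads was 0.0272%, 0.0197% and 0.0172%. With each library left out, the share with Mir6236 ran from 0.185% to 0.217% in AG, 0.112% to 0.151% in MG and 0.166% to 0.205% in GC.

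The labels do not say whether the replicate numbers pair the mice. Of 16 same-numbered pairs 8 correlated above 0.1, with r from -0.23 to 0.38. Of 17 libraries 5 correlated best with their own number, which does not settle pairing either way. With the number as a replicate block, limma called 0 members in each comparison, and the medians were -0.24, -0.03 and 0.74. Block fits against GC left out replicate 6 of the flight group compared. Their medians were those of the fits without that library and without a block. Of 23 named differences, 3 changed sign, all AG minus GC. Scaled by the summed microRNA RPKM without Mir6236, Mirlet7a-1, Mirlet7c-2 and Mirlet7b came to -0.019, -0.56 and -0.64, and Mirlet7b came to -0.037 with Mir6236 in the sum. With single libraries left out, the lowest values were -0.063 for Mirlet7c-2 and -0.24 for Mirlet7b, and the highest were 0.43 and 0.36. The cause of the changed calls and signs was not tested. Read depth limits the 13 members under 20 reads.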
